A study of Mus spretus with 8 samples.

Results

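Cytosolic sulfotransferases and the enzymes that make their sulfate donor were followed in the livers of mice fed p,p'-DDE, a long-lived metabolite that remains after the insecticide DDT is degraded. The family was taken as 10 genes, Sult1a1, Sult1b1, Sult1c2, Sult1d1, Sult1e1, Sult2a1, Sult3a1, Sult5a1, Papss1 and Papss2. All probes annotated to one of these symbols were used, which gave 12 probes of the 42957 on the array and 10 genes of the 22471 with a symbol. Sult1a1 and Sult1d1 had 2 probes each and the other members had 1. All mice were males of the inbred strain SPRET/EiJ (Mus spretus). The DDE group (4 mice, given as 7 weeks old) received Harlan diet with 450 mg/kg p,p'-DDE dissolved in corn oil for 30 days. The control group (4 mice) received Harlan diet with corn oil over the same time. Total liver RNA of each mouse was labelled with Cy3 and measured on 1 array.

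Sulfotransferases transfer a sulfonate group from the donor PAPS (3'-phosphoadenosine 5'-phosphosulfate) to hydroxyl or amine groups, which usually makes the product more water soluble and easier to excrete. Members of subfamily 1 act mostly on phenols, thyroid hormones, catechols and oestrogens, and members of subfamily 2 on steroids and bile acids. PAPS is made from sulfate and ATP by the bifunctional PAPS synthases Papss1 and Papss2. In mouse liver several of these genes, Sult2a1 and Sult3a1 among them, are known to be expressed more in females than in males. Receptors that sense foreign compounds, such as CAR and PXR, are known to act on some of them.

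Values are log2 signals as the authors normalized them, and 1 unit is a doubling. On all 8 arrays the median was 7.46 or 7.47 and the highest value was 16. The background of an array, taken as the 0.95 quantile of its olfactory and vomeronasal receptor probes, lay between 7.55 and 7.81. Bright or dim patches covered from 0.521% to 9.50% of the spots of an array, and 4 of the 96 member spots lay in one. Exposure was visible in Cyp2b10, a standard CAR target, with 15.94, 15.94, 15.99 and 16 in the DDE livers and 8.79, 8.82, 8.87 and 9.57 in the control livers. All 10 hepatocyte markers were above background on every array. Their summed linear signal was 489314 to 547364 in DDE livers and 518756 to 551181 in control livers, and 0 of them passed the test. Summed signals of the other 6 marker lists (bile duct, macrophage, endothelial, stellate, leukocyte and erythroid) also overlapped between the groups. Among the 46 genes of those lists 1 passed, the stellate cell gene Reln, which rose.

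Sult3a1 was the only member to pass, with a lower signal in DDE livers (limma adjusted p = 0.0473). It did not pass when any 1 array was left out. Of the 12 member probes, 0 were called higher, 1 was called lower and 11 did not pass the limma test at an adjusted p of 0.05. Of all probes 2.34% were called higher and 0.661% lower, or 3% in either direction. Counted by gene, with the brighter probe for Sult1a1 and Sult1d1, 1 of 10 passed, against 3.35% of all genes. Without adjustment 2 member probes had a p under 0.05, against 15% of all probes. The groups did not overlap at 2 member probes, against 11.8% of all probes, so both shares were close to those of the whole array. The median change was 0.12 over the 12 member probes and 0.015 over all probes. A single call among 12 probes is a result about Sult3a1, not about the family.

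**Figure D1:**
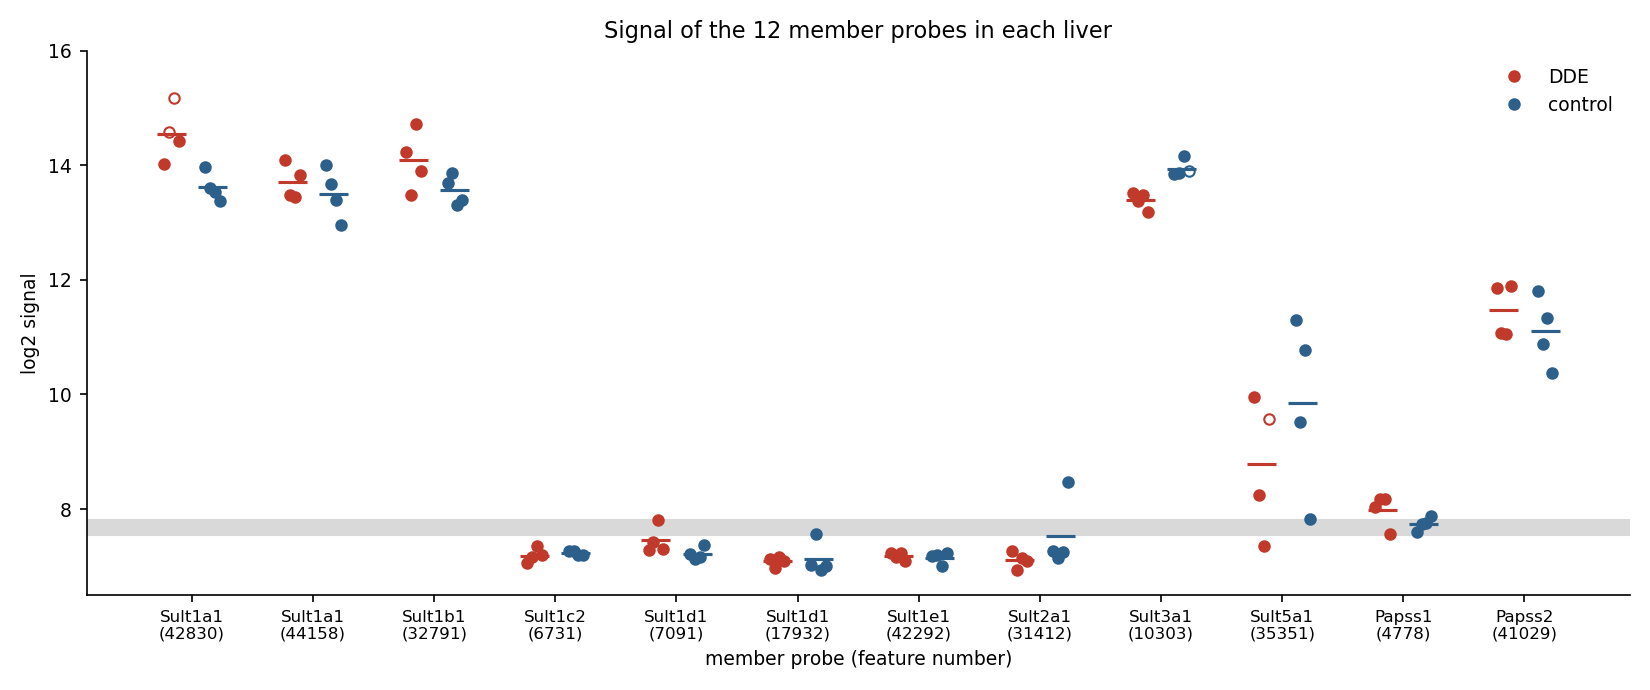
Log2 signal (vertical axis) of the 12 member probes in each liver, with DDE in red on the left of each pair and control in blue on the right, and feature numbers under the gene names. Short lines are group means (n = 4), open points are spots in a bright patch, and the grey band is the background range of 7.55 to 7.81. Sult1c2, Sult1d1, Sult1e1 and Sult2a1 lie at or below the band apart from a few points, and the Sult5a1 points spread furthest.

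Only part of the family was measurable in these livers. Probes of 4 genes, Sult1a1, Sult1b1, Sult3a1 and Papss2, were above background on all 8 arrays. Sult5a1 was above background in 3 of 4 DDE livers and 4 of 4 control livers, and Papss1 in 3 of 4 DDE livers and 3 of 4 control livers. The remaining 4 genes, Sult1c2, Sult1d1, Sult1e1 and Sult2a1, were not above background on most arrays. Of the 16065 probes on the array that were above background on all arrays of at least 1 group, 7.81% passed and 23.6% had groups that did not overlap. In whole liver RNA, fewer cells of a type and less RNA per cell cannot be told apart.

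Sult3a1, a sulfotransferase that acts on amines in the mouse, had 13.52, 13.38, 13.49 and 13.19 in the DDE livers, against 13.84, 13.86, 14.17 and 13.90 in the control livers. Every DDE liver was below every control liver. The means were 13.40 ± 0.15 in DDE livers and 13.94 ± 0.15 in control livers (SD, n = 4 each). The change was -0.55 ± 0.11 (SE), or 1.46-fold lower with a 95% interval of 1.22-fold to 1.74-fold (limma adjusted p = 0.0473). This fall was under 1.5-fold, and 34.3% of the probes above background had a larger absolute change. The livers of a group were alike, with a within-group SD of 0.15 that 94.8% of those probes exceeded. The adjusted p lay from 0.0609 to 0.133 when any 1 array was left out, and the change then lay from -0.59 to -0.47. The spot of control 4 lay in a bright patch whose local deviation was 1.57, while the value itself was 0.22 above the probe's median. Without that spot the change was -0.56 (limma adjusted p = 0.0569).

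Sult3a2, the other gene of subfamily 3, had a higher mean in DDE livers and was not past the threshold. It was singled out after its values had been seen. Its signal was 13.19, 12.69, 13.69 and 13.59 in DDE livers and 12.17, 12.20, 12.53 and 11.97 in control livers. All DDE values were above all control values, with a change of 1.07 ± 0.24 (SE, limma adjusted p = 0.0659). The per-array difference Sult3a2 minus Sult3a1 was -0.33, -0.69, 0.20 and 0.40 in DDE livers and -1.67, -1.66, -1.64 and -1.93 in control livers. Its mean was -0.11 ± 0.50 in DDE livers and -1.73 ± 0.14 in control livers (SD, n = 4 each), a shift of 1.62. As the pair was chosen because both genes separated the groups in opposite directions, a p-value for this shift cannot be read as a test. The shift is given as a description only. Probe sequences were not used here, so binding of Sult3a1 transcripts by the Sult3a2 probe, or the reverse, was not tested.

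**Figure D2:**
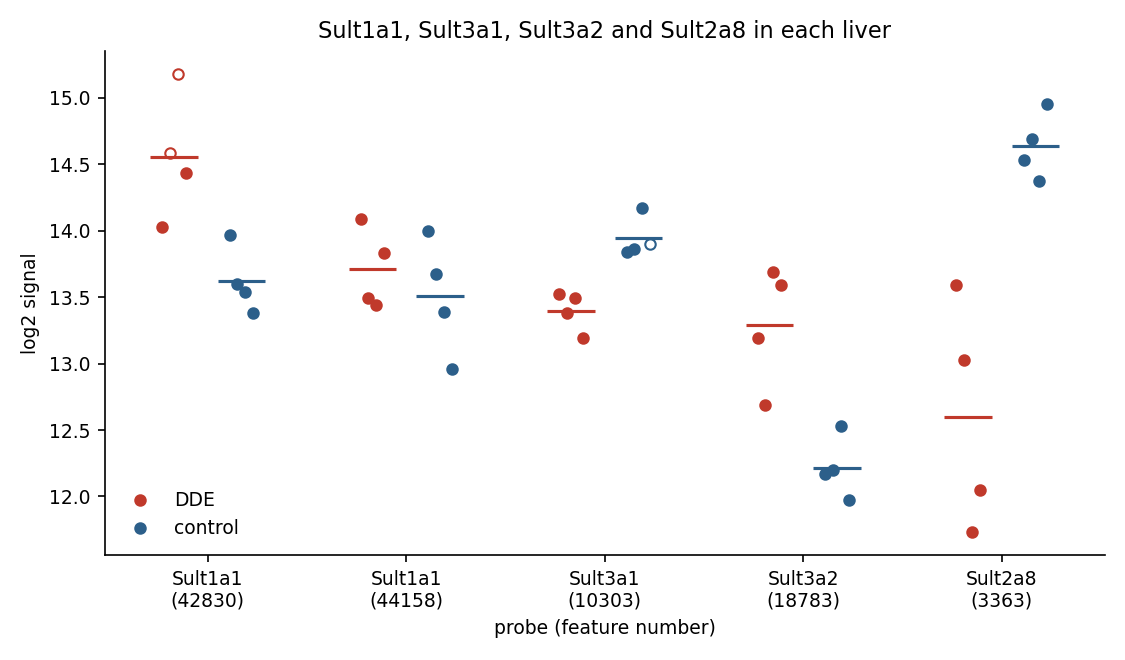
Log2 signal (vertical axis) of both Sult1a1 probes, Sult3a1, Sult3a2 and Sult2a8 in each liver, DDE in red on the left and control in blue on the right of each pair, with lines at the group means (n = 4) and open points for spots in a bright patch. Sult3a1 and Sult2a8 are lower in all 4 DDE livers, Sult3a2 is higher in all 4, and the Sult1a1 groups separate at feature 42830 but not at feature 44158.

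Sult1a1, the main phenol sulfotransferase of liver, gave different pictures at its 2 probes. At feature 42830 the signal was 14.03, 14.58, 15.18 and 14.43 in DDE livers and 13.97, 13.60, 13.54 and 13.38 in control livers. All DDE values lay above all control values, though DDE 1 exceeded control 1 by little. The change there was 0.93 ± 0.25 (SE, 95% interval 0.35 to 1.52, 1.91-fold), with an unadjusted p of 0.00689 that did not pass (limma adjusted p = 0.112). The spots of DDE 2 and DDE 3, the brightest of the group, lay in bright patches with local deviations of 0.61 and 0.89. Their own deviations from the probe's median were 0.58 and 1.18, and without both spots the change was 0.61 (adjusted p = 0.201).

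At feature 44158, where no spot lay in a patch, Sult1a1 had 14.09, 13.49, 13.44 and 13.83 in DDE livers and 14, 13.67, 13.39 and 12.96 in control livers. These groups overlapped, with a change of 0.21 and a 95% interval of -0.38 to 0.79 (limma adjusted p = 0.687). The per-array difference between the probes, feature 42830 minus feature 44158, was -0.06, 1.09, 1.74 and 0.60 in DDE livers and -0.03, -0.07, 0.15 and 0.42 in control livers. DDE 2 and DDE 3, the arrays with the patches, stood furthest out. The shift of 0.73 in this difference did not pass (exact two-sided permutation test, p = 0.143, adjusted p = 0.386 over 3 planned differences). The smallest p that this test allows with 4 arrays per group is 0.0286. Neither probe passed over the whole array. Feature 42830 did pass when only probes above background were tested (limma adjusted p = 0.0435). In that setting 1626 of 16065 probes were called higher, and spots in patches were kept.

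Sult1b1, a sulfotransferase for thyroid hormones and small phenols, had 14.23, 13.49, 14.72 and 13.90 in DDE livers and 13.69, 13.87, 13.31 and 13.39 in control livers. DDE 2 fell within the control values and the other DDE livers lay above all of them. The means were 14.09 ± 0.52 in DDE livers and 13.57 ± 0.26 in control livers (SD, n = 4 each). The change of 0.52 did not pass (limma adjusted p = 0.456), and its 95% interval ran from -0.11 to 1.15. A change of up to 2.22-fold higher thus stayed within the interval.

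Sult5a1 varied more between mice than any other member. It had 9.96, 8.25, 7.36 and 9.58 in DDE livers and 11.30, 9.52, 10.78 and 7.83 in control livers. Within each group the livers spanned from near background to well above it, and the groups overlapped. Means were 8.79 ± 1.20 in DDE livers and 9.86 ± 1.54 in control livers (SD, n = 4 each). Its within-group SD of 1.38 was exceeded by 3.03% of the probes above background, whose median was 0.34. The change was -1.07 with a 95% interval of -3.17 to 1.03 (limma adjusted p = 0.633), so neither a large fall nor a rise of 2.04-fold was distinguishable from no change. Leaving out 1 array moved it between -1.75 (without control 4) and -0.59 (without DDE 3, and likewise without control 1). The spot of DDE 4 lay in a bright patch with a local deviation of 0.87, and without it the change was -1.33 (adjusted p = 0.594).

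Sult1e1, the oestrogen sulfotransferase, was above background in 0 of 8 livers, with 7.10 to 7.24 in DDE livers and 7 to 7.23 in control livers. Sult1c2, a phenol sulfotransferase of subfamily 1, was likewise never above background, with 7.05 to 7.35 in DDE livers and 7.19 to 7.26 in control livers. Neither gene gave a level that could be compared, so no fold is given here. Changes shown for them elsewhere are between background signals. The deviations among these values are those of background spots.

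Sult1d1, which acts on catecholamines in the mouse, was above background in 1 liver at feature 7091 and in none at feature 17932. At feature 7091 it had 7.29, 7.42, 7.81 and 7.31 in DDE livers and 7.22, 7.13, 7.16 and 7.37 in control livers. Only DDE 3 exceeded its array's background. Feature 17932 had 6.97 to 7.16 in DDE livers and 6.94 to 7.57 in control livers. With both probes at background, the difference between them is not read here.

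Sult2a1, a hydroxysteroid sulfotransferase that acts on dehydroepiandrosterone and bile acids, had 7.26, 6.94, 7.14 and 7.10 in DDE livers and 7.26, 7.15, 7.25 and 8.48 in control livers. Control 4 was the 1 liver above background, and its spot lay in no patch. The change was -0.43 (limma adjusted p = 0.599), and it was -0.11 without control 4. Both groups were otherwise not above background, so no fold is given.

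Papss2, the PAPS synthase whose loss in mouse and human affects cartilage and steroid sulfonation, had 11.85, 11.07, 11.06 and 11.90 in DDE livers and 11.81, 10.88, 11.34 and 10.37 in control livers. The groups overlapped throughout. Their means were 11.47 ± 0.47 in DDE livers and 11.10 ± 0.62 in control livers (SD, n = 4 each), with a change of 0.37 and a 95% interval of -0.47 to 1.21 (limma adjusted p = 0.634). Papss1, the other synthase, lay close to background with 8.03, 8.17, 8.18 and 7.57 in DDE livers and 7.60, 7.74, 7.76 and 7.88 in control livers. DDE 1, DDE 2 and DDE 3 were above all controls and DDE 4 was below all of them. Its change was 0.24 with a 95% interval of -0.11 to 0.59 (limma adjusted p = 0.543), and 0.38 without DDE 4 (adjusted p = 0.0735). The change in the per-array difference Papss2 minus Papss1 was 0.13, with 3.48 ± 0.72 in DDE livers and 3.36 ± 0.72 in control livers (SD, n = 4 each, exact two-sided permutation test, p = 0.829, adjusted p = 0.829). A difference in response between the synthases was not detectable with 4 mice per group.

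**Figure D3:**
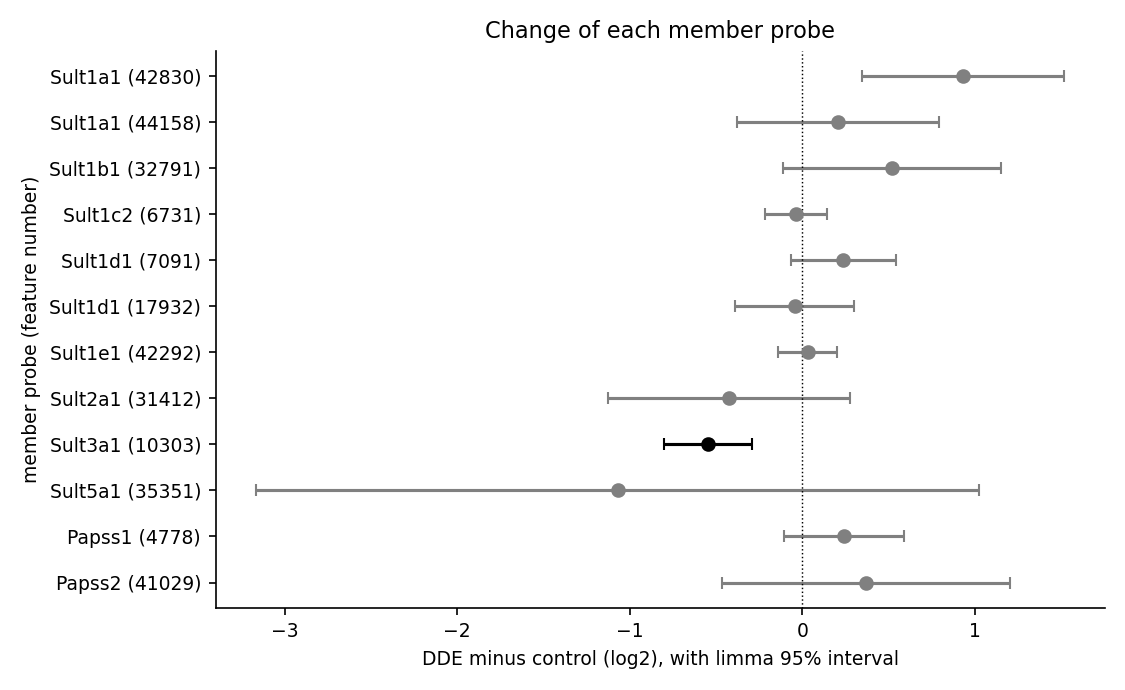
Change of each member probe, DDE minus control on the log2 scale (horizontal axis), as the limma estimate with its 95% interval (bars, n = 4 per group), with the probe that passed the test in black and the others in grey. Sult3a1 (-0.55) passed, feature 42830 of Sult1a1 (0.93) has an interval above 0 without passing after adjustment, and the Sult5a1 interval is the widest, from -3.17 to 1.03. Sult1c2, Sult1d1, Sult1e1 and Sult2a1 were not above background on most arrays.

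Outside the 10 genes, 70 further genes of sulfate handling had a probe. Of them 0 were called higher, 2 were called lower and 68 did not pass, against 2.58% of all genes called higher and 0.774% called lower. Of these 70 genes, 34 were above background on all arrays of at least 1 group. Among other cytosolic sulfotransferases 1 of 10 was called lower, with a median change of -0.22 and only 3 genes above background, Sult2a8, Sult2b1 and Sult3a2. These 3 of 10 were also the genes with an unadjusted p under 0.05, against 16% of all genes. Of them 2 had a higher and 1 a lower signal. The gene called lower was Sult2a8, which sulfonates bile acids in mouse liver, with 13.59, 13.03, 11.73 and 12.05 in DDE livers and 14.53, 14.69, 14.37 and 14.95 in control livers. All DDE livers lay below all control livers, and the DDE livers spread more (SD 0.86) than the control livers (SD 0.25, n = 4 each). The change was -2.04 ± 0.41 (SE, 4.10-fold lower, 95% interval 2.10-fold to 8-fold, limma adjusted p = 0.0499). Only 0.884% of the probes above background had a larger absolute change. The call was at the edge of the threshold: with 1 array left out the adjusted p lay from 0.0399 to 0.130 and passed in 1 of 8 cases, while the change lay from -2.37 (without DDE 1) to -1.75 (without DDE 3).

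Sulfate for PAPS comes from cysteine breakdown and from uptake. Of 13 genes of these steps 1 was called lower and 0 were called higher, with a median change of -0.07. Without adjustment 2 of the 13 had a higher and 3 a lower signal with p under 0.05, against 16% of all genes in either direction. Got1, the cytosolic aspartate aminotransferase that also converts cysteine sulfinate on the way to sulfite, had 13.13, 12.77, 12.95 and 12.49 in DDE livers and 13.94, 14.35, 14.23 and 13.97 in control livers. The groups were well apart, and the change was -1.29 ± 0.16 (SE, 2.44-fold lower, limma adjusted p = 0.0128). Its adjusted p was 0.0521 without DDE 2. The other 12 genes, with the cysteine dioxygenase Cdo1, the sulfite oxidase Suox and the sulfate transporter Slc26a1 among them, did not pass. Of these, Slc26a1 and Tst (higher) and Cbs and Mpst (lower) had groups that did not overlap, against 12.5% of all genes and 23.6% of the probes above background. Of the 13 genes, 11 were above background on all arrays of at least 1 group. Their limma adjusted p lay from 0.0796 (Slc26a1) to 0.159 (Cbs), with the brighter probe for Tst. Both Tst probes separated the groups. The change was 1.49 at feature 22062, where 1 spot lay in a patch (limma adjusted p = 0.113). At the dimmer feature 2431 it was 1.14 (limma adjusted p = 0.0774).

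No gene passed among the 4 for PAPS transport and PAP breakdown, the 13 sulfatases or the 30 Golgi sulfotransferases in the limma test. Without adjustment, 2, 1 and 2 genes of these lists had a higher signal with p under 0.05, and 1, 2 and 3 a lower one, against the same 16%. The median changes were 0.07, -0.13 and -0.03. The smallest p in the first list belonged to Bpnt2, the Golgi phosphatase that removes PAP, with 11.01 ± 0.19 in DDE livers and 11.55 ± 0.18 in control livers (SD, n = 4 each, limma adjusted p = 0.0825). Sgsh, the lysosomal heparan sulfate sulfamidase, had the smallest p of the sulfatases, with 12 ± 0.51 in DDE livers and 13.05 ± 0.29 in control livers (SD, n = 4 each, limma adjusted p = 0.0998). It passed in 1 of 17 other fits (0.0366 when only probes above background were tested), with adjusted p up to 0.228. The change was -1.05, and -0.80 without DDE 4. At its dimmer probe, feature 32869, the change was -0.56 and the groups overlapped (limma adjusted p = 0.374). For the Golgi enzymes the smallest p belonged to Tpst1, a tyrosine sulfotransferase of secreted proteins, which was above background in 0 of 4 DDE livers and 2 of 4 control livers (limma adjusted p = 0.0546). Tpst1 passed in 2 of 15 other fits, with 0.0347 under array weights and 0.0361 without spots in patches. Its adjusted p was up to 0.162, and it passed in 0 of the fits without 1 array.

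**Figure D4:**
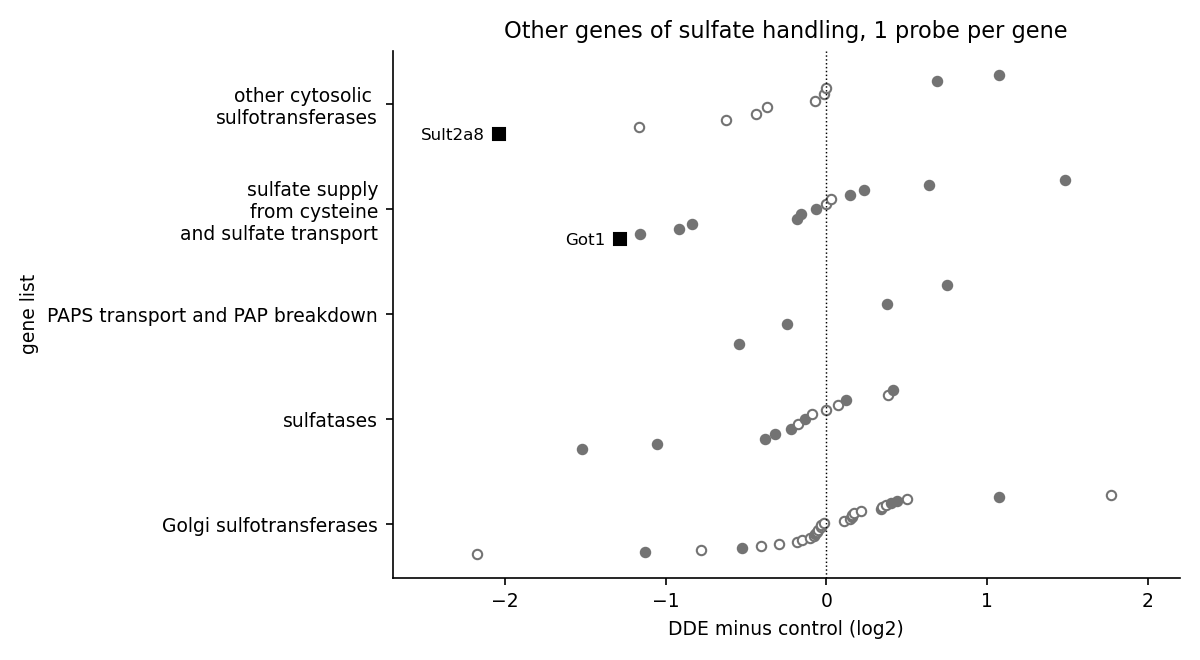
Change of 70 other genes of sulfate handling, DDE minus control on the log2 scale (horizontal axis), 1 probe per gene in 5 lists, each list ordered by size of change. Black squares passed the limma test, grey points did not, and open points were not above background on all arrays of either group. The squares are Sult2a8 at -2.04 and Got1 at -1.29.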

How the data were processed

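Liver RNA of 8 mice (4 DDE, 4 control) was measured on 1-colour arrays, 1 per mouse, labelled with Cy3 per the labels' protocols. The deposited table holds log2 signals of 42957 probes as the authors normalized them. How arrays were scanned, corrected for background and normalized is not given in the sources used here. Probes were named by the annotation table of the platform, in which 33009 probes carry 1 symbol, 9948 none and 0 several. All 10 members matched. Probe sequences and genome positions were not used here. The number of arrays limits the precision.

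Every probe was tested with limma 3.58.1 (lmFit, eBayes) in R 4.3.3, DDE minus control, two-sided, with Benjamini-Hochberg adjustment over all 42957 probes and a threshold of 0.05. Of several probes of a gene, the one brightest on average over the 8 arrays stood for the gene. Differences between 2 probes were tested by exact permutation over the 8 arrays. A spot was taken to lie in a bright or dim patch where spots around it (7 rows, 5 columns) had a median deviation from their probe medians above 0.3 in size, and the layout of 85 spots per row was read from feature order. The background was the 0.95 quantile of 1634 olfactory and vomeronasal receptor probes, spots in patches left out.

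Members, lists and tests were chosen with earlier results of these data known. Named are all member probes, the genes past the threshold in each further list, or otherwise the gene with the smallest p. Some other genes of those lists are named beside them. Cyp2b10 was the exposure check. Alternatives were other normalizations, filters, variance models, weights per array, replicate number as a block, a fold minimum, the mean of a gene's probes, and leaving out arrays or spots in patches. Leaving out control 4 and DDE 4 together and comparing Sult3a2 with Sult3a1 were added after the data were seen.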

Additional observations from a re-analysis of the deposited data

Results flagged for a closer look

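In groups of 4, a value was picked out where it lay far from the other 3 relative to the range of the group. This was met in 4 of 42 groups, while chance gives about 5% of groups. Control 2 had 7.57 at feature 17932 of Sult1d1, against 6.94 to 7.03 in the other controls, and all 4 values were below background. Control 4 had 8.48 for Sult2a1, against 7.15 to 7.26 in the other controls, and this spot lay in no patch. DDE 4 had 10.72 for Bpnt2, against 11.07 to 11.13 in the other DDE livers. DDE 4 also had 11.24 for Sgsh, against 12.22 to 12.30 in the other DDE livers.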

How the results depend on the processing

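The call of Sult3a1, the 1 member probe and 1 member gene called lower, was the result most open to the processing: the count was 0 with quantile normalization, without dimmer probes, with an intensity trend and robust variance, with a replicate block, without spots in patches, without control 4 and DDE 4, with a minimum of 1.5-fold, and in all 8 fits without 1 array (range 0 to 0). It stayed lower in all 17 fits of that probe, with changes from -0.59 to -0.47 and adjusted p from 0.0333 to 0.133, and 3 passed. Member probes and genes called higher numbered 0, and 1 (Sult1a1, limma adjusted p = 0.0435) when only probes above background were tested. In that setting 1626 of all 16065 probes were called higher and 563 lower, so calls were more frequent in general. Deviations of same-numbered arrays correlated at 0.08, 0.02, 0.04 and -0.01. DDE 1 and DDE 2, but not DDE 3 and DDE 4, correlated best with the control of the same number. The share of spots in patches rose with replicate number, from 0.521% to 7.59% in DDE arrays and from 1.16% to 9.50% in control arrays. Whether equal numbers pair the mice is thus not settled. With the replicate block 8 probes of the array were called higher and 1 lower, against 1005 and 284, and Sult3a1 had an adjusted p of 0.117, with 0 wider genes called lower.

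Wider genes called higher numbered 0, and 1 without dimmer probes and with a gene's probes averaged, 2 without spots in patches and without control 4 and DDE 4, 3 above background and with array weights, and 0 to 3 without 1 array (3 without DDE 4, 1 without DDE 2 and 1 without DDE 3). Those called lower numbered 2, and 1 with 75th percentile centring, an intensity trend or a gene's probes averaged, 3 without spots in patches, 4 with array weights, 5 above background and 0 to 2 without 1 array (0 without DDE 2). Sult3a2 passed in 4 of 17 fits (adjusted p from 0.0246 to 0.173), Sult2a8 in 5 of 17 (0.0140 to 0.139), and Got1 in 15 of 17 (0.00625 to 0.0795, the highest with the replicate block).

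Sign changes occurred in changes that never passed. Without control 4 and DDE 4 the change of Papss2 was -0.017 and that of Sult1a1 feature 44158 was -0.013, against up to 0.61 and 0.37 in other fits. Sult1c2 ranged from -0.092 to 0.0083 (positive without DDE 1), Sult1d1 feature 17932 from -0.11 to 0.10 (positive without control 2), and Sult1e1 from -0.0175 (without control 3) to 0.087. Papss2 minus Papss1 shifted by -0.16 to 0.41 without 1 array and by -0.44 without control 4 and DDE 4. The difference between the Sult1a1 probes shifted by 0.43 to 1.03 without 1 array. Its unadjusted exact permutation p was 0.0286 without DDE 1. Without spots in patches the shift was 0.15 (exact permutation p = 0.733). Causes were not tested. Signal over background limits Sult1c2, Sult1d1, Sult1e1 and Sult2a1.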

Other observations

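In several genes of the wider lists 1 or a few livers stood far above the rest. Chst11 had 14.28 in DDE 4, against 7.21 to 7.35 in the other DDE livers and 7.20 to 7.40 in control livers. Chst3 had 7.18 to 7.44 in DDE livers and 13.38 in control 3, with 7.34, 8.31 and 8.88 in the other controls. Sult2a7, a relative of Sult2a1, had 7.07 to 7.26 in DDE livers and 10.67 in control 3 and 8.22 in control 4, against 7.18 and 7.27 in the other controls. In these 3 genes the values named from 8.22 upward lay in a patch. Other such values lay in none: Sult6b1 had 8.90 in control 2, Sult4a1 had 9.17 in control 1 at feature 10885, and Chst2 had 8.93 in DDE 4.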
